A study of Mus musculus with 4 samples.

Results

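Glucocorticoid-responsive genes were read in bulk messenger RNA sequencing of 2 Stra8 knockout (KO) and 2 wild-type (WT) mouse libraries. The members are 35 genes of 55414 in the count table, found by symbol: 31 genes that glucocorticoids are known to induce, and 4 receptors and cofactors (Nr3c1, Nr3c2, Hsd11b1 and Fkbp4). The list was drawn up with results of this same KO and WT comparison in view. Differences, calls and counts of calls among the members are therefore a description of these libraries, not a test, and nothing is supported with them.

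The KO group lacks Stra8, a gene best known for starting meiosis in germ cells, and the WT group carries it. The series design gives animals of both genotypes a green fluorescent reporter driven by the Stra8 promoter and describes fluorescent cells sorted from the hippocampus, whereas the sample labels name brain. The sources used here do not give strain, age, sex, the number of animals in a library, any hormone treatment or the time of day. Stra8 itself had 7 and 4 reads in the KO libraries and 5 and 1 in the WT libraries, too few for the expression filter, so it does not check the genotype labels. Markers of tissue outside the hippocampus were present in all 4 libraries. The cerebellar genes Cbln3 and Pcp2 had 19.7 to 20.01 and 7.23 to 7.55 CPM in KO libraries, against 45.9 to 47.3 and 18.6 to 19.4 CPM in WT libraries. Library totals were 71097417 to 82172740 counts. Among genes with 20 to 10000 reads, libraries of 1 genotype differed by 2.51 to 2.58 times the variance that independent reads would give, and by 1.25 to 1.29 times after dividing the counts by 2 to allow for both mates of a pair being counted. The labels do not say whether same-genotype libraries are from different animals, and p-values measure only the spread between these libraries, which may be technical.

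Glucocorticoids, in mice chiefly corticosterone, are steroid hormones of the adrenal gland that enter cells and bind receptors of the nuclear receptor family. The hormone-bound glucocorticoid receptor leaves a complex of heat shock proteins and immunophilins, moves into the nucleus and binds glucocorticoid response elements, inverted AGAACA-type motifs 3 bases apart, near its target genes. In brain the mineralocorticoid receptor binds the same hormone with higher affinity and is abundant in hippocampal neurons. The targets include feedback inhibitors of the receptor, anti-inflammatory proteins and genes of fuel use, in neurons, glia and blood vessels.

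Most of the induced members were lower in the KO libraries. Of 31 members 25 were called lower and 0 higher by the quasi-likelihood test of edgeR, fitted over the 21592 genes that passed the expression filter and called at an adjusted p under 0.05 (Benjamini-Hochberg). Over all those genes 6.53% were called, 3.19% lower and 3.35% higher; because the members were chosen with this contrast known, nothing is read from the distance between these shares. At an unadjusted p under 0.05, 27 members were lower and 0 higher, and DESeq2 and limma-trend each also called 25 lower and 0 higher. The median log2 fold change (KO over WT) of the 31 members was -0.33, beside -0.00038 over all genes tested. The members ranged from -1.06 for Lcn2 to 0.04 for Gadd45g. KO and WT values did not overlap, with KO below WT, for 28 of the 31, where 45.7% of all genes tested did not overlap, 22.9% with KO below WT and 22.8% with KO above WT. All 35 members passed the filter on low counts, with mean read numbers between 320 and 19372. CPM below stands for counts scaled to a common library total (TMM-scaled CPM). As these are bulk libraries, fewer cells of a type and less RNA per cell cannot be told apart.

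**Figure D1:**
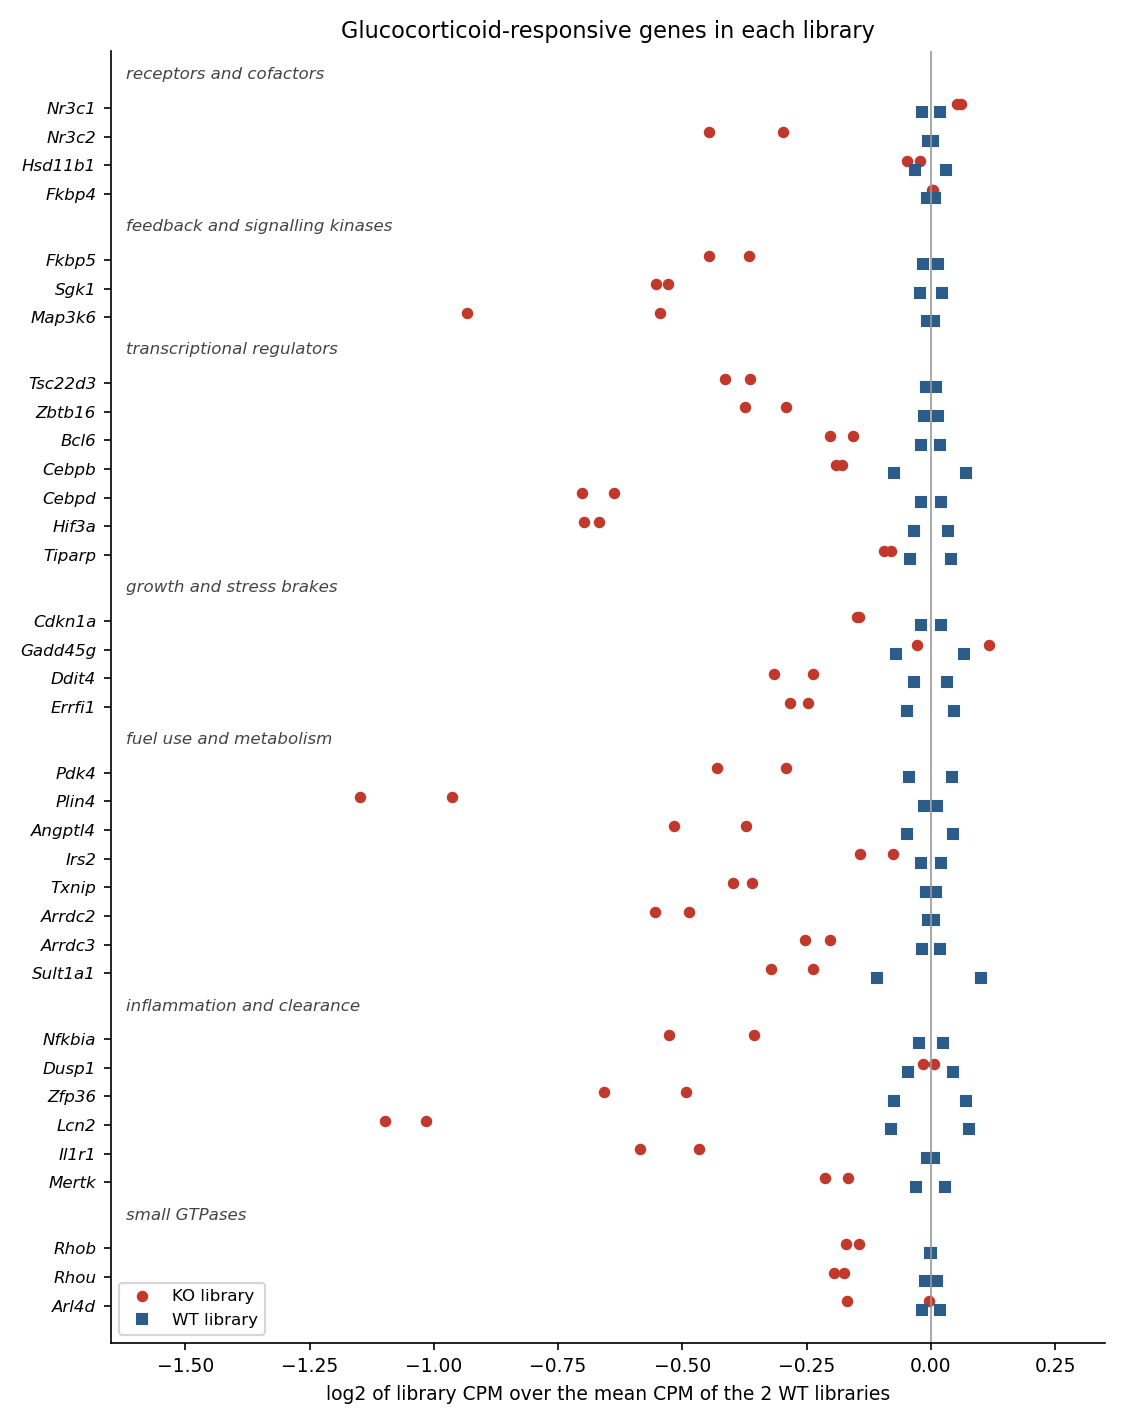
Each row is 1 of the 35 members, grouped by role; red circles are the 2 KO libraries and blue squares the 2 WT libraries. The horizontal axis is the log2 of a library's CPM over the mean CPM of the WT libraries. KO circles lie left of the WT squares for 28 of 31 induced members, furthest for Plin4 and Lcn2, while Nr3c1, Hsd11b1 and Fkbp4 lie near 0.

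The receptors and cofactors did not share one direction. Nr3c1 (ENSMUSG00000024431), the glucocorticoid receptor, had 91.3 and 90.8 CPM in the KO libraries and 88.6 and 86.4 CPM in the WT libraries. Both KO values were above both WT values, by a log2 fold change of 0.06 (SE 0.027), and the gene was not called. Nr3c2 (ENSMUSG00000031618), the mineralocorticoid receptor, had 53.1 and 48.0 CPM in KO libraries against 65.1 and 65.6 CPM in WT libraries. It fell (log2 fold change -0.37, SE 0.038) and was the 1 called member of these 4. The dentate granule cell markers Prox1, Dsp, C1ql2, Lct and Tdo2 were lower in the same libraries, 5 of 5 called, with a summed level of 76.8 to 79.2 CPM in KO and 108.8 to 108.9 CPM in WT; their part in the Nr3c2 difference was not tested. Hsd11b1, the enzyme that regenerates active corticosterone inside cells, had 13.6 and 13.3 CPM in KO and 13.5 and 14.1 CPM in WT, a log2 fold change of -0.03 (SE 0.067), and the genotypes overlapped. Leaving out KO library 2 gave -0.02, WT library 1 -0.06 and WT library 2 -0.003. Fkbp4 encodes FKBP52, the immunophilin that favours hormone binding and nuclear transport of the receptor. Its values were 144.8 and 145.04 CPM in KO and 145.5 and 143.8 CPM in WT, a log2 fold change of 0.003 (SE 0.021). The sign of that near-zero value turned with library size alone as the scaling.

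Feedback and kinase genes were lower, 3 of 3 called. Fkbp5 (ENSMUSG00000024222) encodes FKBP51, the immunophilin that lowers the receptor's affinity for hormone and so closes a feedback loop. It had 47.5 and 44.9 CPM in the KO libraries and 60.5 and 61.8 CPM in the WT libraries. The groups were separate, and the log2 fold change was -0.40 (SE 0.035). Fkbp5 and Fkbp4 are related immunophilins that act on the receptor in opposite ways, and in these libraries only the hormone-induced one of the pair was called. Whether the fold changes of the pair differ was not tested. Sgk1 (ENSMUSG00000019970), a kinase that raises the activity of ion channels and transporters, had 60.9 and 60.0 CPM in KO and 86.6 and 89.3 CPM in WT. That is a log2 fold change of -0.54 (SE 0.030), a change of -31.2%, with no overlap between genotypes. Map3k6, a stress-activated kinase, had 4.14 and 5.42 CPM in KO and 7.87 and 7.95 CPM in WT, a log2 fold change of -0.73 (SE 0.11). The difference between its KO libraries, 0.39 on the log2 scale, was the largest such difference of any member.

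Promoter sequence is a feature that the choice of members did not use. RefSeq windows on GRCm38.p6, another build than that of the counts, cover 250 bases before to 50 bases after each annotated start, and 31 of the 35 members have at least 1. The full response element, AGAACA and TGTTCT with any 3 bases between them, which reads the same on both strands, was present in windows of 3 of 27025 genes (0.0111%), and Sgk1 was 1 of the 3. It was the single match among the 28 induced members with a window. A shorter form that fixes fewer letters, GNACA and TGTNC with any 3 bases between them, was added after the data were seen. It occurred in 145 of 27025 genes (0.537%) and in 3 of the 28 induced members: Sgk1, Map3k6 and Txnip. One AGAACA or TGTTCT alone occurred in 21.3% of genes and in 5 of the 28 (17.9%): Sgk1, Tsc22d3, Bcl6, Sult1a1 and Il1r1. Every full element also holds the shorter form and both single motifs, and genes with several windows, such as Sgk1 with 6, have more chances of a match. A match is a description of letters, and response elements of many of these genes are known to lie outside such windows.

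The 13-base matches of Sgk1, Map3k6 and Txnip are aligned here. These 3 genes were called lower, as were 25 of the 31 induced members, so nothing is read from their calls. The matches lie at positions -188 to -176 in Sgk1, -181 to -169 in Map3k6 and -172 to -160 in Txnip. Positions are counted from the annotated transcript start of the window that holds each match, which for Sgk1 is 1 of 6.
Sgk1: GAACAGAATGTTC
Map3k6: GCACAGGCTGTTC
Txnip: GCACACCGTGTCC

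The windows that hold them follow, with Tsc22d3 as an example of a called member with a single TGTTCT. All are written 5′ to 3′ on the strand of the gene, with element and single-motif matches in capitals. They are chr10:21993640-21993939 (plus strand) for Sgk1, chr4:133240568-133240867 (plus) for Map3k6, chr3:96557707-96558006 (plus) for Txnip and chrX:140600473-140600772 (minus) for Tsc22d3, all on GRCm38.p6.
Sgk1: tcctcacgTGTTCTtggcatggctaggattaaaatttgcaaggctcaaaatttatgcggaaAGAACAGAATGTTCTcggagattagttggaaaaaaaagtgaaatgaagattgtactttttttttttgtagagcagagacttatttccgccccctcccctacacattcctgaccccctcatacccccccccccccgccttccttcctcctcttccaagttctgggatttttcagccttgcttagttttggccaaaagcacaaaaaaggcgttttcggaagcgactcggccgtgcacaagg
Map3k6: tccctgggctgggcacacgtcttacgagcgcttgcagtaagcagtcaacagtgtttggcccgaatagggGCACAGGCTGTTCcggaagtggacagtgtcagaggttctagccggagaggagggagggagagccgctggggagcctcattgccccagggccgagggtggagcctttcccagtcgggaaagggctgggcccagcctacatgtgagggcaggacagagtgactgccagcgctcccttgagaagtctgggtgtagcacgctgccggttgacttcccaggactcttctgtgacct
Txnip: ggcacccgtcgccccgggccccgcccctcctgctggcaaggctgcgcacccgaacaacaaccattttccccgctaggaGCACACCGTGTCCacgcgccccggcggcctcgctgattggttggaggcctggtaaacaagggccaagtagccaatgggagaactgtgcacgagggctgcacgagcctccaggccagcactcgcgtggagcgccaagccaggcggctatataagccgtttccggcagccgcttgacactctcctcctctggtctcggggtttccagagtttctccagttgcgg
Tsc22d3: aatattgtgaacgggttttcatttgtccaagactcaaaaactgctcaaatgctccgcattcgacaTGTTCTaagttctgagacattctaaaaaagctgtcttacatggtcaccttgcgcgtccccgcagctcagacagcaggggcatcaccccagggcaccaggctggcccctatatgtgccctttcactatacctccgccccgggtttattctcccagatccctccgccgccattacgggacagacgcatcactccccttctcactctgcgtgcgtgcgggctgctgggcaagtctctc

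Of the transcriptional regulators 5 of 7 were called lower. Tsc22d3 (ENSMUSG00000031431) encodes GILZ, a leucine zipper protein that carries much of the hormone's anti-inflammatory action. It had 78.6 and 81.3 CPM in KO libraries and 105.5 and 103.9 CPM in WT libraries, a log2 fold change of -0.39 (SE 0.027). Zbtb16, the zinc finger repressor PLZF, had 62.7 and 66.4 CPM in KO and 82.1 and 80.5 CPM in WT, a log2 fold change of -0.33 (SE 0.031). In both genes the KO and WT values were well separated. Hif3a, a member of the hypoxia-inducible factor family that can dampen its relatives, had 8.18 and 8.36 CPM in KO and 12.97 and 13.6 CPM in WT, a log2 fold change of -0.68 (SE 0.075). Bcl6, a transcriptional repressor best known from lymphocytes, fell by a smaller amount, with 41.4 and 42.7 CPM in KO, 48.3 and 47.05 CPM in WT and a log2 fold change of -0.18 (SE 0.037).

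Cebpd and Cebpb, the C/EBP family members of the list, basic leucine zipper factors of acute-phase and fat-cell programs, had unlike values. Cebpd had 7.21 and 6.89 CPM in KO against 11.04 and 11.4 CPM in WT and fell, with a log2 fold change of -0.67 (SE 0.081). Cebpb had 9.54 and 9.46 CPM in KO against 10.3 and 11.3 CPM in WT, a log2 fold change of -0.18 (SE 0.079) that was not called and was -0.11 without WT library 2. Whether Cebpd and Cebpb differ from each other was not tested. Tiparp, an ADP-ribosyltransferase that restrains the aryl hydrocarbon receptor, had 19.4 and 19.6 CPM in KO and 21.3 and 20.1 CPM in WT; it was not called, and its log2 fold change of -0.09 (SE 0.056) was -0.04 without WT library 1.

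Of the growth and stress brakes 3 of 4 were called lower. Ddit4, which encodes REDD1, an inhibitor of the growth kinase complex mTORC1, had 37.7 and 39.8 CPM in KO and 45.8 and 47.95 CPM in WT, a log2 fold change of -0.28 (SE 0.040). Errfi1 encodes an inhibitor of the epidermal growth factor receptor. It had 38.9 and 39.9 CPM in KO and 45.8 and 48.9 CPM in WT, a log2 fold change of -0.27 (SE 0.040). The KO libraries of both genes were below the WT libraries without overlap. Cdkn1a, the cell cycle inhibitor p21, had 42.8 and 42.9 CPM in KO and 48.1 and 46.8 CPM in WT; the log2 fold change of -0.15 (SE 0.037) was called, and was -0.13 and not called without WT library 1. Gadd45g, a growth arrest and DNA damage gene, had 16.6 and 18.4 CPM in KO and 16.2 and 17.8 CPM in WT. The genotypes overlapped, and the sign of its log2 fold change of 0.04 (SE 0.066) turned when 1 library was left out.

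**Figure D2:**
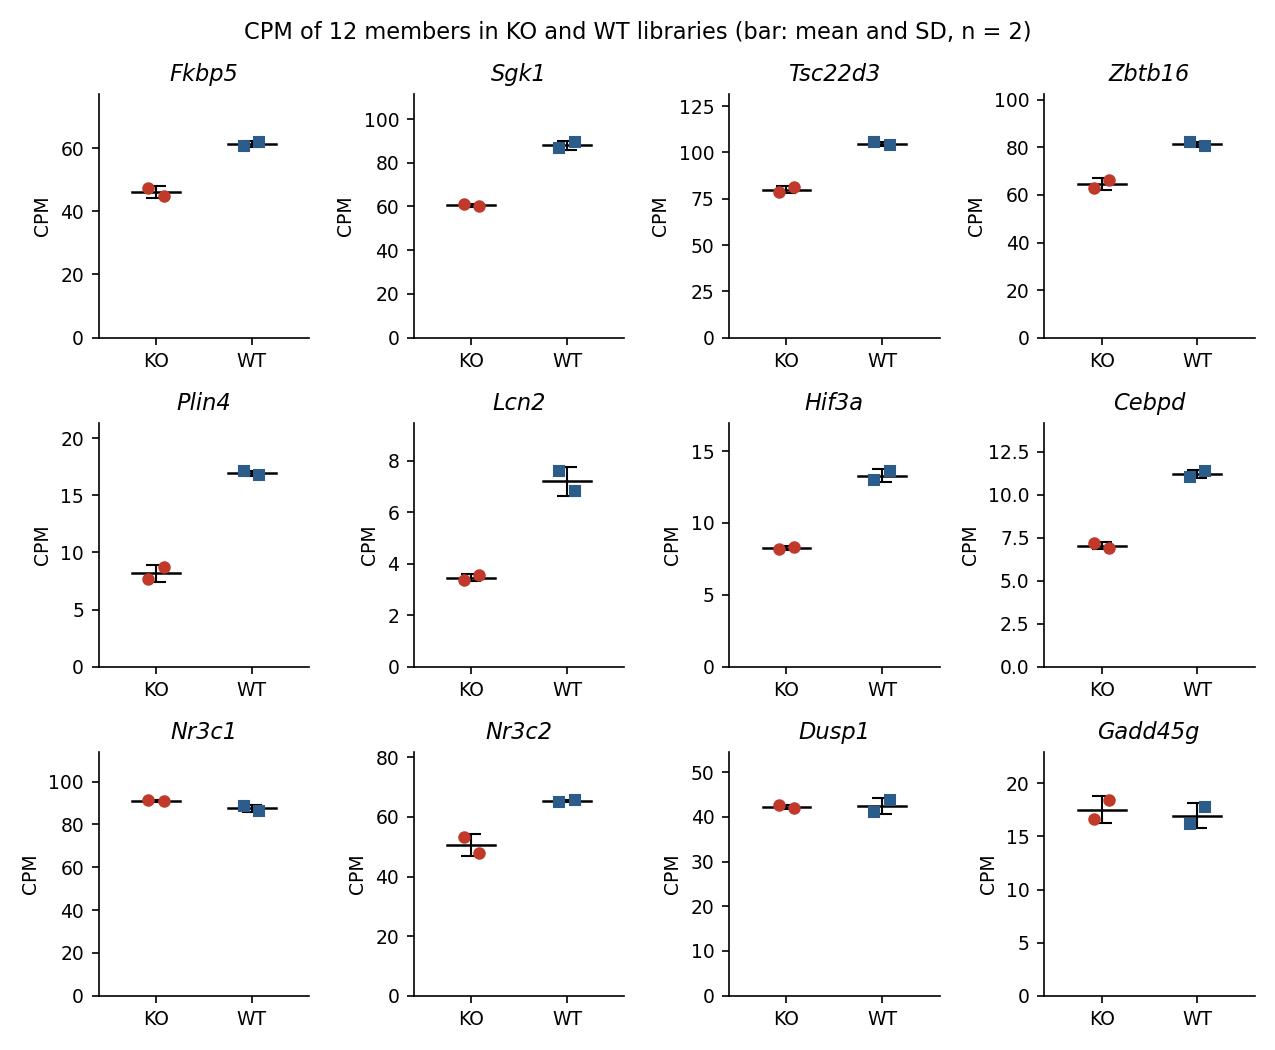
CPM (vertical axis, from 0) of 12 members in KO (left, red) and WT (right, blue) libraries; points are libraries and bars the mean and SD (n = 2). The upper 8 genes and Nr3c2 have both KO libraries below both WT libraries, Nr3c1 has KO slightly above WT, and Dusp1 and Gadd45g overlap.

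Of the genes of fuel use and metabolism 7 of 8 were called lower. Plin4 (ENSMUSG00000002831), a lipid droplet coat protein, had 7.65 and 8.70 CPM in the KO libraries and 17.1 and 16.8 CPM in the WT libraries. At -1.06 on the log2 scale (SE 0.075), a change of -51.9%, it was next to Lcn2 the furthest from 0 of the members. Pdk4, the kinase that turns off pyruvate dehydrogenase and spares glucose, had 8.32 and 7.55 CPM in KO and 10.5 and 9.86 CPM in WT, a log2 fold change of -0.36 (SE 0.083). Angptl4, a secreted inhibitor of lipoprotein lipase, was the member with the fewest reads, at 3.59 and 3.25 CPM in KO and 4.80 and 4.499 CPM in WT, and a log2 fold change of -0.44 (SE 0.12). The calls of Pdk4 and Angptl4 were lost without KO library 2 (log2 fold changes of -0.29 and -0.37) and without WT library 1 (-0.31 and -0.39).

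The arrestin-like genes of this group moved the same way. Txnip, which encodes a protein that binds thioredoxin and limits glucose uptake, had 20.2 and 20.7 CPM in KO and 26.4 and 26.7 CPM in WT, a log2 fold change of -0.38 (SE 0.051). Arrdc2 had 13.3 and 12.7 CPM in KO and 18.7 and 18.6 CPM in WT, a log2 fold change of -0.52 (SE 0.063). Arrdc3, an adaptor for receptor breakdown, had 47.9 and 49.6 CPM in KO and 57.9 and 56.4 CPM in WT, a log2 fold change of -0.23 (SE 0.035). All 3 were called, with no overlap between genotypes. Irs2, the adaptor of the insulin receptor, had 122.8 and 128.8 CPM in KO and 137.5 and 133.8 CPM in WT. Its log2 fold change of -0.11 (SE 0.025) was called, but was -0.08 without KO library 1 and -0.09 without WT library 1, and not called in either case. Sult1a1, which sulfates phenols and catecholamines, had 7.46 and 7.04 CPM in KO and 9.43 and 8.17 CPM in WT, a log2 fold change of -0.28 (SE 0.090). It was not called, and was -0.17 without WT library 1 and -0.38, and called, without WT library 2.

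Of the genes of inflammation and clearance 5 of 6 were called lower. Nfkbia encodes the inhibitor that holds NF-kappaB in the cytoplasm. It had 20.6 and 23.1 CPM in KO and 30.1 and 29.1 CPM in WT, a log2 fold change of -0.44 (SE 0.055). Zfp36, which encodes the messenger RNA decay factor tristetraprolin, had 4.96 and 5.56 CPM in KO and 7.44 and 8.22 CPM in WT, a log2 fold change of -0.58 (SE 0.097). Both are brakes on inflammatory signalling, and in both the genotypes were separate. Il1r1, the interleukin-1 receptor, had 6.96 and 6.41 CPM in KO and 9.57 and 9.67 CPM in WT, a log2 fold change of -0.52 (SE 0.085). Mertk, a receptor kinase for the uptake of dying cells, had 42.7 and 41.3 CPM in KO and 48.8 and 46.9 CPM in WT, a log2 fold change of -0.19 (SE 0.038). Dusp1, the phosphatase that ends MAP kinase signals, was an exception in the group: at 42.6 and 41.9 CPM in KO and 41.1 and 43.7 CPM in WT the genotypes overlapped. Its log2 fold change was -0.005 (SE 0.040), and the sign turned when a library was left out.

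Lcn2 (ENSMUSG00000026822), the iron-siderophore carrier lipocalin-2, had 3.36 and 3.56 CPM in the KO libraries and 7.59 and 6.80 CPM in the WT libraries. The log2 fold change of -1.06 (SE 0.11), a change of -52.0%, was the furthest from 0 among the members. Neutrophils store lipocalin-2. Their markers S100a8, S100a9, Ngp, Camp, Ly6g and Retnlg were near 0 in all 4 libraries: 6 of 6 averaged under 1 CPM, and Ly6g had no read. The summed level of these markers was 0.611 to 0.847 CPM in KO and 0.868 to 0.902 CPM in WT. The part of neutrophils or of any other cell type in the Lcn2 difference was not tested.

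The small GTPases had the median nearest 0 among the induced role groups, -0.16. Rhob, an endosomal regulator of the cytoskeleton, had 234.0 and 229.7 CPM in KO and 258.3 and 258.7 CPM in WT, a log2 fold change of -0.16 (SE 0.018). Rhou had 44.5 and 43.8 CPM in KO and 49.8 and 50.6 CPM in WT, a log2 fold change of -0.18 (SE 0.036). Both were called. Arl4d, a regulator of membrane and actin traffic, had 17.5 and 19.7 CPM in KO and 19.9 and 19.5 CPM in WT. The genotypes overlapped, and its log2 fold change of -0.09 (SE 0.061) was -0.003 without KO library 1 and -0.17 without KO library 2.

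Between the KO libraries the median size of the log2 difference over the 35 members was 0.065, and between the WT libraries 0.040. Between the genotypes it was 0.28, where all genes tested had a median size of 0.087. The members were chosen with this contrast known, so nothing is read from the distance between these values. Members with few reads tended to lie further from 0. Across the 31 induced members, of which 9 were at or below -0.5, the rank correlation of mean CPM with log2 fold change was 0.47. That correlation is given as a description, since the points share the same 4 libraries and genes with few reads vary more. Among the 12330 genes with a mean at least as high as the lowest member, 5.13% were called lower and 0.422% were at or below -0.5.

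**Figure D3:**
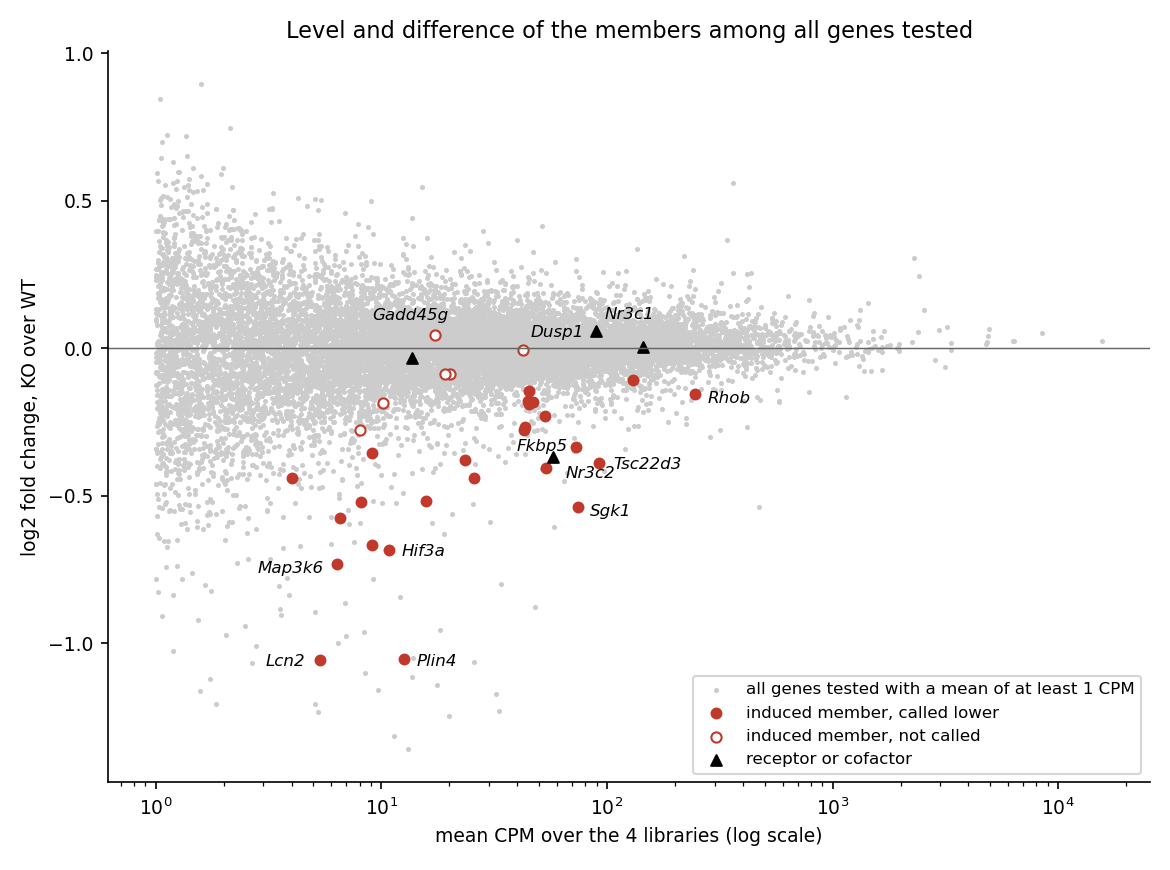
Mean CPM over the 4 libraries (horizontal, log scale) and log2 fold change of KO over WT (vertical) for 15160 genes with a mean of at least 1 CPM (grey), induced members called lower (filled red) or not called (open red) and receptors and cofactors (black triangles). The called induced members range from -0.11 for Irs2 to -1.06 for Lcn2 and Plin4.

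For 12 members an exon overlaps an exon of a gene on the opposite strand in the GENCODE M21 annotation. The sources used here do not state whether counting used strand, so reads of such pairs may be mixed. Partners with as many reads as the member or more were Hdgfl2 for Plin4, Tmem189 for Cebpb, Ergic1 for Dusp1 and Sgf29 for Sult1a1. None of these 4 partners was called, with log2 fold changes from -0.13 (Sgf29) to 0.06 (Ergic1). Hdgfl2 had 96.9 and 99.5 CPM in KO and 99.2 and 100.1 CPM in WT, a log2 fold change of -0.02.

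Other genes of the pathway, taken from lists that exclude the members, differed by list. These lists too were chosen with earlier results of these data known, so their counts are a description and not a test. Over all genes tested 3.19% were called lower and 3.35% higher. Of 18 further glucocorticoid-induced genes 8 were called lower, 10 were not called and 0 were called higher (0 also at an unadjusted p under 0.05), with a median log2 fold change of -0.10. Mt2, a metallothionein, had 63.5 and 61.9 CPM in KO and 80.4 and 79.3 CPM in WT, a log2 difference of -0.35 (SE 0.030; edgeR, adjusted p = 1.24e-08). Its neighbour in function Mt1 fell by 0.18 on the log2 scale (edgeR adjusted p = 5.04e-06). Fam107a, an actin-binding stress-response gene, had 445 and 450.4 CPM in KO and 502 and 509 CPM in WT, a log2 difference of -0.18 (edgeR, adjusted p = 1.34e-08). Sdc4, a cell-surface proteoglycan, had a log2 difference of -0.23 (edgeR, adjusted p = 1.11e-05). Klf15, a transcription factor gene of fasting metabolism, had the largest fall of the list, with 21.2 and 20.6 CPM in KO and 27.6 and 26.7 CPM in WT and a log2 difference of -0.37 (SE 0.051; edgeR, adjusted p = 1.90e-05). The transcription factor gene Klf9 and the clock gene Per1, which the hormone induces in many tissues, were not called. Klf9 had 300.8 and 289.99 CPM in KO and 295.4 and 306.8 CPM in WT, and Per1 had 154.9 and 160.3 CPM in KO and 159.2 and 163.2 CPM in WT, so that for both the genotypes overlapped. Klf15, Klf9 and Per1 were singled out after their values were seen.

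Genes around the receptor were read as 2 lists, chaperones and coregulators. The median log2 fold change over all genes tested, with which the list medians below can be compared, was -0.00038. Whether the 2 lists differ was not tested. Over all genes tested 3.35% were called higher and 3.19% lower. Without overlap, 22.8% of all genes tested had KO above WT and 22.9% KO below WT. Of 10 receptor chaperones 1 was called higher and 0 lower by edgeR, and 3 were higher and 0 lower at an unadjusted p under 0.05. Their median was 0.03, and 6 of the 10 had KO above WT without overlap and 2 KO below WT. The called gene was Bag1, a chaperone regulator, with 92.7 and 94.6 CPM in KO and 82.8 and 90.5 CPM in WT, a log2 difference of 0.11 (SE 0.032; edgeR, adjusted p = 0.0376). Without WT library 1 that value was 0.05 (adjusted p = 0.614) and without WT library 2 it was 0.18; DESeq2 did not call it (adjusted p = 0.351). The Bag1 call was also lost without KO library 2 (edgeR, adjusted p = 0.0529), with library size alone as the scaling and with halved counts. The heat shock protein gene Hspa8 had a log2 fold change of 0.04 and was not called by edgeR (adjusted p = 0.0595). It was called higher at the same threshold by DESeq2 (adjusted p = 0.0222) and limma-trend, with no filter, a stricter filter, dispersion set to 0 and the replicate block, but not with halved counts. Dnaja1, a co-chaperone, was at 0.05 and not called (edgeR, adjusted p = 0.116), but was 0.07 and called without KO library 1 (edgeR, adjusted p = 0.0416). The adaptor Stip1 was at 0.04 and not called, and was 0.02 without WT library 1. Of 12 coregulators 1 was called lower and 0 higher by edgeR, and 5 were lower and 0 higher at an unadjusted p under 0.05. Their median was -0.03, and 6 of the 12 had KO below WT without overlap and 0 KO above WT. Crebbp, a histone acetyltransferase, had 139.7 and 139.2 CPM in KO and 147.9 and 148.7 CPM in WT, a log2 difference of -0.09 (SE 0.021; edgeR, adjusted p = 0.00926; 0.066 without WT library 2). Med1, Ncoa3 and Ncoa1, which bind the hormone-bound receptor, had log2 fold changes of -0.10, -0.09 and -0.06 and were not called. Med1 was -0.14 and called without KO library 2 (edgeR, adjusted p = 0.0107) and -0.05 without KO library 1, and Ncoa1 was -0.04 without WT library 1.

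Genes of the stress hormone axis went in both directions. Of 11 tested 2 were called higher and 1 lower, and 4 of the 15 listed did not pass the filter. Pomc, the precursor of the pituitary hormone that drives the adrenal, had 8.83 and 9.23 CPM in KO and 18.8 and 18.6 CPM in WT, a log2 difference of -1.05 (SE 0.068; edgeR, adjusted p = 8.09e-11). Growth hormone and prolactin, other anterior pituitary products, had log2 fold changes of -1.06 and -1.21 in the same libraries. Summed over 7 anterior pituitary markers the level was 20.02 to 20.6 CPM in KO and 43.0 to 43.3 CPM in WT, with 5 of the 7 averaging under 1 CPM; the part of pituitary tissue in the Pomc value was not tested. Avp, the vasopressin gene, rose, with 9.55 and 10.3 CPM in KO and 7.29 and 7.66 CPM in WT and a log2 difference of 0.41 (SE 0.084; edgeR, adjusted p = 0.00221). Pcsk1, a prohormone convertase, rose by 0.14 on the log2 scale (edgeR adjusted p = 0.0169), a call lost without KO library 2 (edgeR adjusted p = 0.0538) and without WT library 2 (0.199). Crh, the corticotropin-releasing hormone gene, had 7.51 and 6.30 CPM in KO and 6.09 and 5.13 CPM in WT, a log2 difference of 0.30 (SE 0.11; edgeR, adjusted p = 0.09996). Without WT library 1 it was 0.43 (edgeR adjusted p = 0.017), and without KO library 2 it was 0.42 (0.00847), called in both cases. It was 0.17 without KO library 1 and 0.19 without WT library 2, and not called.

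Genes that make, carry or break down the steroids were mostly scarce. Of 14 listed 7 passed the filter and 0 were called in either direction by edgeR, 0 also at an unadjusted p under 0.05. The adrenal enzyme Cyp11b2, Hsd3b1 and the plasma carrier Serpina6 had no read in any library. H6pd, which feeds cofactor to Hsd11b1, had 8.42 and 8.58 CPM in KO and 9.99 and 8.91 CPM in WT, a log2 fold change of -0.15 (SE 0.084; -0.07 without WT library 1 and -0.23 without WT library 2). Star and Tspo, also on this list, had log2 fold changes of -0.27 (SE 0.18) and -0.16 (SE 0.19). Without KO library 1 these were -0.11 and -0.02, and without KO library 2 they were -0.43 and -0.30. Star was -0.17 without WT library 2, and Tspo was -0.10 without WT library 1. The reductase gene Akr1c14 had 0.941 and 1.52 CPM in KO and 0.917 and 0.829 CPM in WT, a log2 fold change of 0.49 (SE 0.25; 0.11 without KO library 2 and 0.80 without KO library 1).

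Markers of cell types and regions moved in the same libraries, and their part in the differences of the members was not tested. Among all genes tested 3.19% were called lower and 3.35% higher. Without overlap, 22.9% had KO below WT and 22.8% KO above WT. Cerebellar markers were 6 of 6 called lower, with a summed level of 97.86 to 97.9 CPM in KO and 207 to 213 CPM in WT. Choroid plexus markers were 9 of 12 called lower and 12 of 12 below WT without overlap, with a sum of 465 to 473 CPM in KO and 674 to 678 CPM in WT. Of 12 astrocyte markers 6 were called lower and 0 higher, with a sum of 6539 to 6545 CPM in KO and 6717 to 6729 CPM in WT. Oligodendrocyte markers were 10 of 12 called higher, at 11341 to 11364 CPM in KO and 10679 to 10761 CPM in WT. Pan-neuronal markers were 3 of 6 called higher, at 4445 to 4448 CPM in KO and 4309 to 4321 CPM in WT. Red blood cell markers were 2 of 3 called higher, at 184.8 to 192.9 CPM in KO and 152.6 to 165.1 CPM in WT.

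Vascular, immune and immediate-early markers were read in the same way. Of all genes tested 6.53% were called, 3.19% lower and 3.35% higher. Of 11 endothelial markers 2 were called higher (Kdr and Cldn5) and 1 lower (Slc2a1). Their median was 0.005 (below 0 with library size alone as the scaling), and their sums were 380.4 to 386.1 CPM in KO and 405.1 to 410.2 CPM in WT. Slc2a1, the marker with the highest level of the 11, had 107.8 and 103.4 CPM in KO and 133.8 and 133.8 CPM in WT. Mural cell markers were 0 of 10 called, with sums of 252.3 to 264.8 CPM in KO and 257.5 to 259.9 CPM in WT and 1 of 10 lower at an unadjusted p under 0.05. Microglial markers were 0 of 10 called, at 319.04 to 323.9 CPM in KO and 318.05 to 318.4 CPM in WT, with 1 of 10 higher at an unadjusted p under 0.05. Border macrophage markers were 0 of 4 called, at 12.997 to 13.4 CPM in KO and 12.9 to 13.5 CPM in WT, with 0 at an unadjusted p under 0.05. Leptomeningeal fibroblast markers were 0 of 9 called, at 139.6 to 144.4 CPM in KO and 138.4 to 138.97 CPM in WT, with 2 higher and 1 lower at an unadjusted p under 0.05. Of 9 immediate-early genes, which activity and tissue handling induce, 4 were called higher and 0 lower, with 1 lower at an unadjusted p under 0.05 and sums of 1159 to 1163 CPM in KO and 1016 to 1019.7 CPM in WT. Apart from Ly6g, every marker had reads.

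**Figure D4:**
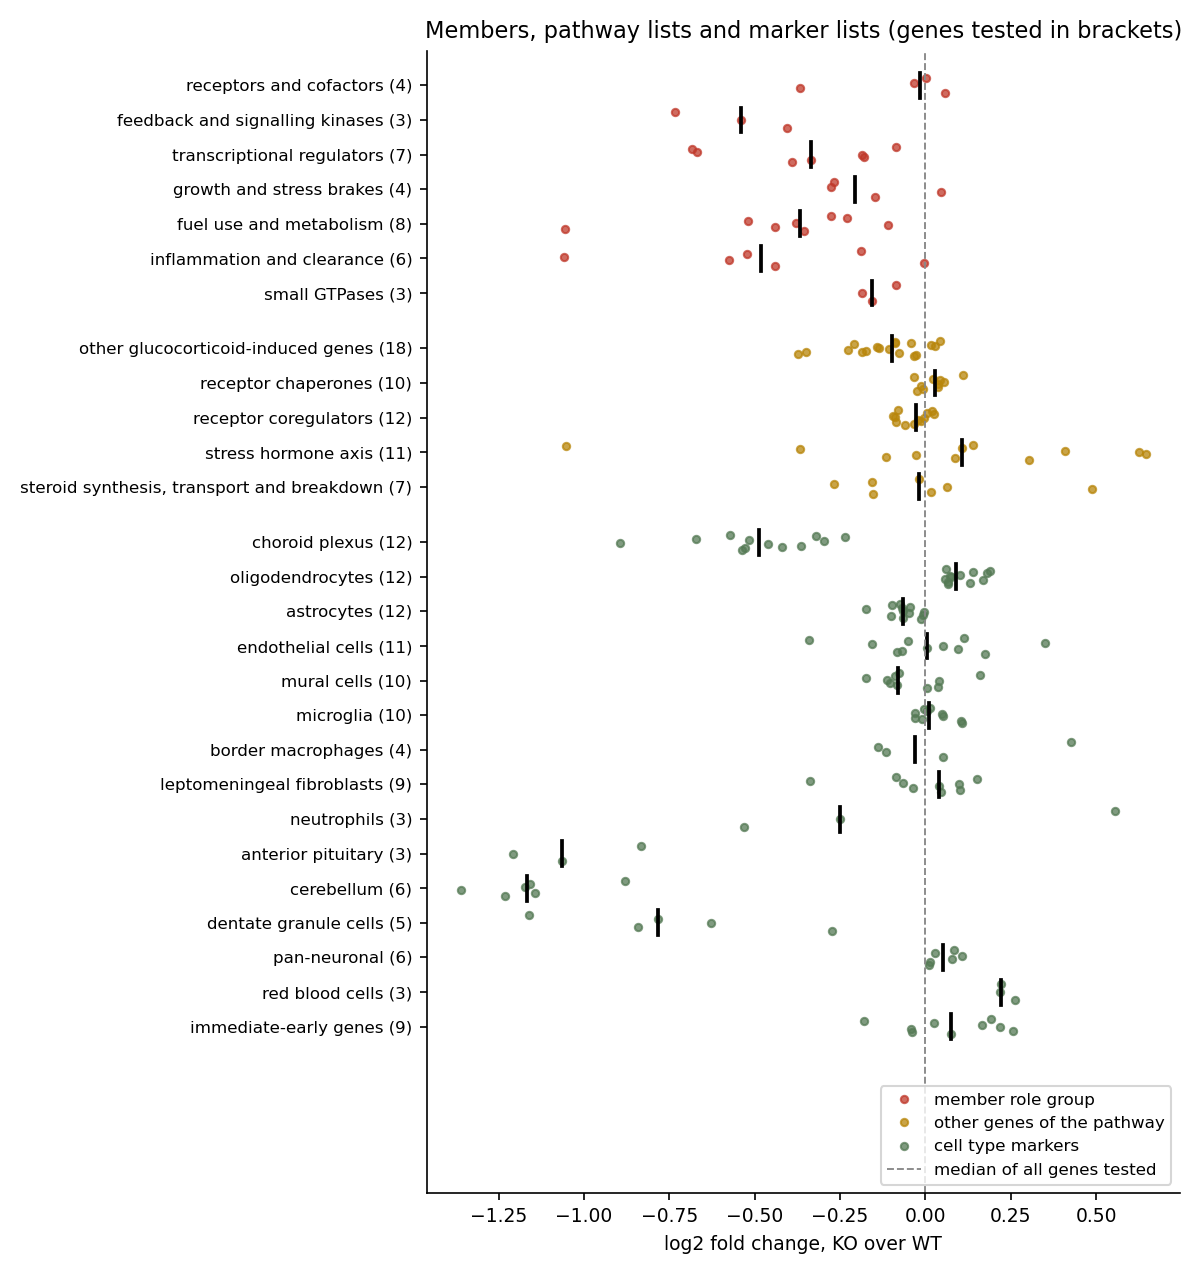
Log2 fold change of KO over WT (horizontal) for each tested gene of the member role groups (red), the other pathway lists (gold) and the cell type marker lists (green); black bars are list medians and the dashed line is the median of all genes tested. The 6 induced role groups have medians from -0.54 to -0.16, genes of the chaperone and coregulator lists lie between -0.10 and 0.11, and cerebellar, anterior pituitary, dentate granule and choroid plexus markers have medians from -1.17 to -0.49.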

How the data were processed

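Bulk messenger RNA sequencing counts of 2 Stra8 KO and 2 WT libraries were used. The authors deposited 1 table of whole-number read counts by gene. Its KO column names carry a suffix that the WT column names lack. The sources used here do not give the meaning of that suffix, so anything it marks cannot be told apart from genotype. GRCm39 is the build, and STAR 2.6.1c, featureCounts, FastQC and DESeq2 are the tools, that the submitters' processing notes name; the sources used here give neither their roles nor the strand setting or annotation release. Even numbers made up 72.8% to 74.3% of the counts from 1 to 20, so both mates of a pair appear to have been counted. Symbols matched 52081 of 55414 identifiers.

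The fit used edgeR 4.0.16 under R 4.3.3, with filterByExpr (minimum count 10), TMM (factors 0.997 to 1.00), glmQLFit and glmQLFTest on genotype, and Benjamini-Hochberg adjustment over all 21592 genes. The SE of a log2 fold change is its size over the square root of F. Alternatives used DESeq2 1.42.0, limma 3.58.1 and other scalings, filters and library sets. The procedure was tested on simulated data.

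The members and lists were chosen with earlier results of these data known. Every receptor, cofactor and induced member is named, and from each other pathway list up to 4 genes with the smallest p and a mean of at least 1 CPM. Outside that rule, Klf15, Klf9 and Per1 were added after their values were seen, and Cyp11b2, Hsd3b1 and Serpina6 are named as genes without reads. Promoter windows are from RefSeq (GRCm38.p6). Protein sequences were not analysed here.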

Additional observations from a re-analysis of the deposited data

How the results depend on the processing

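The count of induced members called lower was 25 and ranged from 24 to 26 under 11 other settings: library size alone, DESeq2 size factors, a stricter filter, no filter, limma-trend, DESeq2, dispersion set to 0, halved counts, the replicate number as a block, an adjusted p under 0.1, and X and Y genes left out, which removes Tsc22d3. It ranged from 21 (without WT library 1) to 26 with 1 library left out, and 0 were called higher in every setting. Of the 26 called members 22 stayed called in the same direction under 14 settings (the above but for the looser threshold, and each library left out); the exceptions were Cdkn1a, Pdk4, Angptl4 and Irs2, each only when a library was left out. A library left alone in its genotype was taken to vary as the other genotype does. The median log2 fold change of the induced members, -0.33, was -0.31 with X and Y genes left out and ranged from -0.37 (without WT library 2) to -0.31 with 1 library left out. With counts added up within each genotype, which was chosen after seeing the data and allows no test, it was -0.35. Near-zero values turned sign. Fkbp4 was -0.00685 with library size alone and ranged from -0.0054 to 0.0118 with 1 library left out. Gadd45g ranged from -0.0272 to 0.118 and Dusp1 from -0.0478 to 0.0407 in the same way. The count of other pathway genes called higher, 3, was 5 with the replicate block and 5 at an adjusted p under 0.1. The genes added at the looser threshold were Hspa8 (edgeR adjusted p = 0.0595) and Crh (edgeR adjusted p = 0.09996). Hspa8 was also among the genes called with the block, and why the block added calls was not tested. Same-numbered KO and WT libraries did not deviate together (correlation of deviations over 21592 genes 0.016), so the replicate numbers are not taken as pairs; with the block 26 induced members were called lower. Depth limits the genes with few reads: Angptl4, with a mean of 320 reads, had an SE of 0.12.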
